A study of Oryza sativa Japonica Group and Oryza sativa Indica Group with 20 samples.

Results

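Rice genes for late embryogenesis abundant (LEA) proteins were followed through tissue culture at 9 loci. They were taken by identifier, 9 of the 54170 loci in the deposited table, and comprise Rab16A, Rab16B, Rab16C and Rab16D, LEA3, Em1, WSI18, WSI724 and a further dehydrin, LOC_Os02g44870. All 9 passed the filter on low values (at least 1 FPKM in at least 2 libraries), as did 22913 loci in all. The series compared a japonica cultivar, TNG67, with an indica cultivar, IR64, at 5 stages. These were callus induced from seed on medium with 2,4-D (a synthetic auxin, 2.5 mg/L; T1), callus subcultured on fresh medium of that kind (T2), callus that regenerated (TS), callus that failed to regenerate (TF), and the embryo (T0). TS and TF calli stood on regeneration medium, with NAA (an auxin, 0.02 mg/L) and BAP (a cytokinin, 2 mg/L). RNA was sequenced in 1 library per cultivar and stage, 10 in all, and the labels do not say how many embryos or cultures made up a library. No transgene or mutation is named in any group.

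LEA proteins are very hydrophilic, and many of them have little fixed structure in water. They build up late in seed maturation, when the embryo prepares to dry out, and again in leaves and roots under drought, salt or the stress hormone abscisic acid. Dehydrins are the LEA group marked by a lysine-rich K-segment, thought to fold into a helix on membranes and other surfaces as water is lost. Callus is plant tissue that grows without forming organs, here on hydrated medium.

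The 4 Rab16 genes (named for their response to abscisic acid) encode dehydrins and lie together on chromosome 11. Their identifiers are LOC_Os11g26790 for Rab16A, LOC_Os11g26780 for Rab16B, LOC_Os11g26760 for Rab16C and LOC_Os11g26750 for Rab16D. LEA3 (LOC_Os05g46480) and Em1 (LOC_Os05g28210) are on chromosome 5, WSI18 (LOC_Os01g50910) is on chromosome 1, WSI724 (LOC_Os03g45280) on chromosome 3 and LOC_Os02g44870 on chromosome 2. The chromosome is read from the identifier, and the names are those in common use for these identifiers, since the deposited table carries none. A RefSeq gene table (assembly ASM3414082v1) listed RAB16D, RAB16C, RAB16B and RAB21, an older name of Rab16A, in that order on chromosome 11, the order in which the 4 identifiers run. No sequences of these genes were used here.

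Values are FPKM, fragment counts scaled to gene length and library size, so levels can be compared between genes. Depth is unknown, since FPKM does not keep it. The sum of FPKM over all loci ran from 602209 in IR64 T2 to 3792962 in IR64 T0, and the IR64 T0 sum was 792962 without loci at or above 100000 FPKM. Reads of both cultivars were aligned to a japonica genome and kept only where unique. A lower IR64 value and poorer alignment of IR64 reads therefore cannot be told apart, and the split of reads among the related Rab16 copies is uncertain. Nor can fewer cells with a transcript be told apart from less transcript per cell. The tissue labels were not checked against marker genes, for which the table gives no names.

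In the embryo the levels of the 9 loci were spread widely. Among the 1% most abundant of the tested loci were 3 of the 9 in TNG67 embryo RNA and 5 in IR64 embryo RNA, while Rab16D stood at percentile 21.6 in TNG67 and 23.1 in IR64. LEA3 had 3078 FPKM in TNG67 embryo RNA and 1261 FPKM in IR64 embryo RNA, at percentile 99.8 of the tested loci in each. WSI18 had 882 FPKM in TNG67 embryo RNA and 1694 FPKM in IR64 embryo RNA. Em1 had 901 FPKM in that of TNG67 and 1119 FPKM in that of IR64. In TNG67 the 9 loci summed to 5879 FPKM at T0, 2076 at T1, 1510 at T2, 569 at TS and 414 at TF. In IR64 they summed to 5351 FPKM at T0, 671 at T1, 605 at T2, 777 at TS and 1089 at TF. The sum was thus lower in each callus than in the embryo of its cultivar, and among the calli it was smallest on regeneration medium in TNG67 but on auxin medium in IR64.

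**Figure D1:**
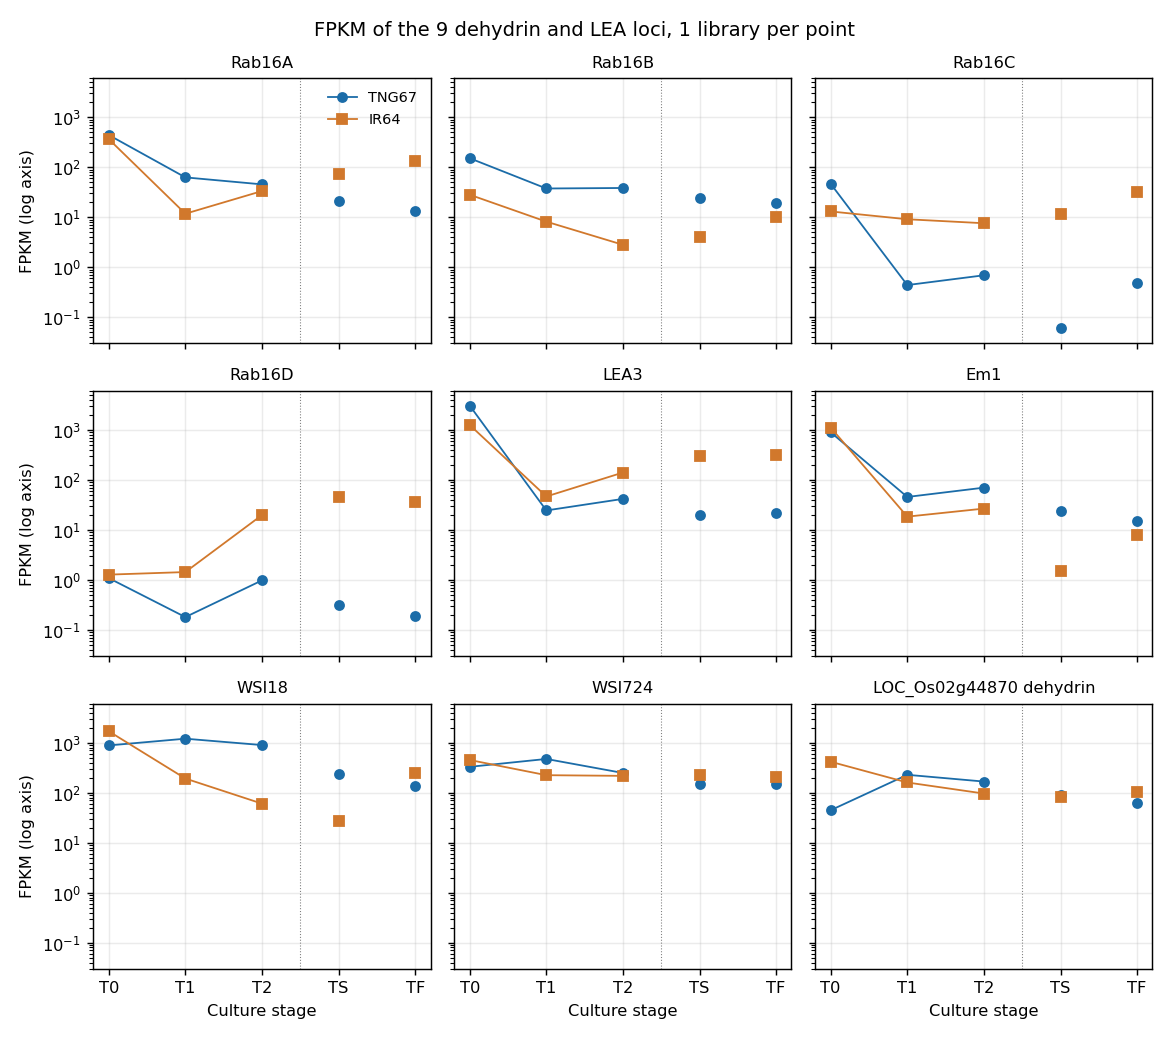
FPKM (log axis) of each of the 9 loci by culture stage, 1 library per point, with TNG67 as circles and IR64 as squares; lines join T0, T1 and T2, and TS and TF are the alternative outcomes on regeneration medium. LEA3 and Em1 stand at 317 FPKM or less in every callus and at 901 FPKM or more in both embryos, whereas WSI724 spans only 147 to 473 FPKM over the 10 libraries.

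Callus was set against embryo first as the mean of T1, T2, TS and TF minus T0, under a change common to both cultivars (limma on log2(FPKM + 1)). Of the 9 loci, 4 fell and 0 rose at an adjusted p under 0.05, where 18.3% of all tested loci were called lower and 14.7% higher. The 4 were Em1, LEA3, Rab16A and Rab16B. With libraries scaled to a common sum the balance of all loci turned over, to 10.2% lower and 26.7% higher, while 3 of the 9 were lower and 0 higher. The median log2 change of the 9 was -2.56, against 0.03 over all tested loci. With 1 library per cultivar and stage, limma can take its spread only from how far the cultivars differ in their stage changes (residual df of 4). These p-values therefore measure how alike the cultivars moved, and not how cultures vary.

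Em1, a group 1 LEA protein and the rice counterpart of the wheat seed protein Em, had the largest fitted fall over both cultivars. In TNG67 Em1 was at 901 FPKM at T0, 45.8 at T1, 70.3 at T2, 23.5 at TS and 15.4 at TF. In IR64 Em1 was at 1119 FPKM at T0, 18.5 at T1, 26.8 at T2, 1.53 at TS and 7.99 at TF. All 4 calli lay far below the embryo in each cultivar, by 12.8-fold or more in TNG67 and 41.8-fold or more in IR64. For Em1 the fitted log2 change was -5.73 (SE 0.59, limma adjusted p = 0.0022), and the call was kept in 21 of 21 alternative settings.

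LEA3, a group 3 LEA protein inducible by abscisic acid and salt, also fell, and its calli ran apart in the cultivars. In TNG67 LEA3 was at 3078 FPKM at T0, 24.6 at T1, 41.9 at T2, 20.0 at TS and 21.9 at TF. In IR64 LEA3 was at 1261 FPKM at T0, 46.8 at T1, 141 at T2, 302 at TS and 317 at TF. The TNG67 calli lay within 2.09-fold of each other, while the IR64 calli differed by up to 6.77-fold, with TS and TF the highest. For LEA3 the fitted log2 change was -4.91 (SE 0.96, limma adjusted p = 0.012). By cultivar it was -6.83 for TNG67, past the -4.73 of Em1 there, and -2.98 for IR64, where Em1 had -6.73. Without the TNG67 embryo the adjusted p was 0.058.

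Rab16A, the most abundant Rab16 gene in both embryos, was lower in every callus than in its embryo. In TNG67 Rab16A was at 443 FPKM at T0, 62.9 at T1, 45.6 at T2, 21.3 at TS and 13.5 at TF. In IR64 Rab16A was at 367 FPKM at T0, 11.8 at T1, 33.5 at T2, 74.2 at TS and 131 at TF. The calli were thus lowest on regeneration medium in TNG67 and lowest at T1 in IR64. For Rab16A the fitted log2 change was -3.42 (SE 0.95, limma adjusted p = 0.036). That call was lost in 8 of 21 settings, with adjusted p of 0.16 without TNG67 T0, 0.098 without IR64 T0, 0.066 without TNG67 TS, and 0.059 and 0.071 without the T2 library of TNG67 and of IR64. It was also lost after quantile normalization (0.073), with libraries scaled to a common sum (0.059) and without the filter on low values (0.083).

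Rab16B was also lower in all 4 calli than in the embryo of each cultivar. In TNG67 Rab16B was at 152 FPKM at T0, 37.7 at T1, 38.6 at T2, 24.9 at TS and 19.1 at TF. In IR64 Rab16B was at 28.3 FPKM at T0, 8.19 at T1, 2.82 at T2, 4.04 at TS and 10.1 at TF. The size of the fall was alike in the cultivars, -2.36 in TNG67 and -2.14 in IR64 on the log2 scale, from embryo levels that differed 5.23-fold. For Rab16B the fitted log2 change was -2.25 (SE 0.42, limma adjusted p = 0.011), but the adjusted p was 0.22 without the cultivar as replicate block and 0.055 without TNG67 T0.

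**Figure D2:**
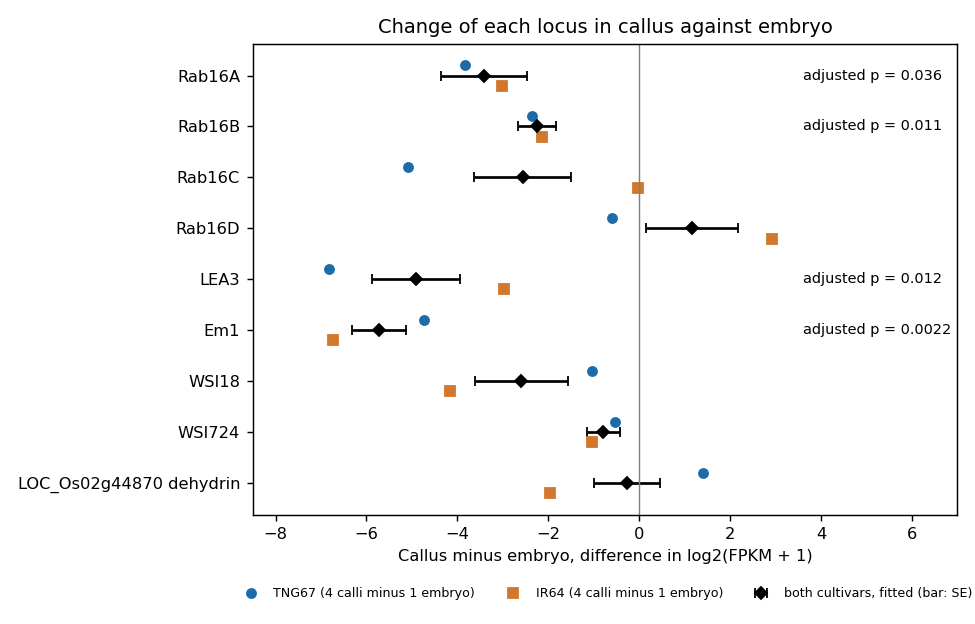
Change of each locus in callus against embryo as a difference in log2(FPKM + 1): diamonds with SE bars give the change fitted over both cultivars, circles TNG67 and squares IR64 (mean of 4 calli minus 1 embryo). Adjusted p-values stand beside the 4 loci that passed limma's test, and the cultivars lie on opposite sides of 0 for Rab16D and the LOC_Os02g44870 dehydrin.

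The other 5 loci did not pass this test. Rab16C in TNG67 was at 46.8 FPKM at T0, 0.441 at T1, 0.692 at T2, 0.06 at TS and 0.487 at TF. In IR64 Rab16C was at 13.1 FPKM at T0, 9.14 at T1, 7.61 at T2, 11.6 at TS and 32.4 at TF. All TNG67 calli were under 1 FPKM, whereas the IR64 calli lay around their embryo and TF stood above it. The fitted log2 change of -2.56 (SE 1.07) had a limma adjusted p of 0.11. It lay between the change of TNG67 alone, -5.09, and that of IR64 alone, -0.02. Leaving out the embryo of 1 cultivar gives the change of the other by construction.

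Rab16D, like Rab16C, was lower in TNG67 calli than in IR64 calli. In TNG67 Rab16D was at 1.09 FPKM at T0, 0.181 at T1, 0.982 at T2, 0.312 at TS and 0.187 at TF. In IR64 Rab16D was at 1.28 FPKM at T0, 1.44 at T1, 19.9 at T2, 45.4 at TS and 36.6 at TF. It was the lowest of the 9 loci in both embryos, and only in IR64 T2, TS and TF was it above 2 FPKM. For Rab16D the fitted log2 change was 1.16 (SE 1.02, limma adjusted p = 0.4).

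WSI18, a group 3 LEA protein found through its induction by water stress, was the most abundant of the 9 in TNG67 T1, T2 and TS. In TNG67 WSI18 was at 882 FPKM at T0, 1203 at T1, 897 at T2, 239 at TS and 136 at TF. In IR64 WSI18 was at 1694 FPKM at T0, 192 at T1, 60.4 at T2, 26.7 at TS and 248 at TF. The TNG67 calli on auxin medium stood above the embryo, while all IR64 calli were at least 6.82-fold below theirs. For WSI18 the fitted log2 change was -2.59 (SE 1.03, limma adjusted p = 0.098).

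WSI724, another water stress-induced gene, varied least. In TNG67 WSI724 was at 329 FPKM at T0, 473 at T1, 248 at T2, 152 at TS and 147 at TF. In IR64 WSI724 was at 451 FPKM at T0, 224 at T1, 217 at T2, 231 at TS and 202 at TF. The IR64 calli lay within 1.15-fold of each other. For WSI724 the fitted log2 change was -0.79 (SE 0.36, limma adjusted p = 0.14), with an adjusted p of 0.042 without TNG67 T1 and up to 0.81 over the other settings.

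The LOC_Os02g44870 dehydrin stood on opposite sides of the embryo in the cultivars. In TNG67 the LOC_Os02g44870 dehydrin was at 44.6 FPKM at T0, 228 at T1, 167 at T2, 88.1 at TS and 61.5 at TF. In IR64 the LOC_Os02g44870 dehydrin was at 416 FPKM at T0, 160 at T1, 96.1 at T2, 80.5 at TS and 104 at TF. The calli of the cultivars overlapped, and the embryos differed 9.15-fold in (FPKM + 1), with TNG67 the lower. For the LOC_Os02g44870 dehydrin the fitted log2 change was -0.27 (SE 0.73, limma adjusted p = 0.79). It turned to 0.18 after quantile normalization and 0.22 with a common sum. The change was 1.41 in TNG67 and -1.96 in IR64, and each is what the fit gives without the embryo of the other cultivar.

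The difference between the cultivars in the change from embryo to callus was tested as an interaction, with the 4 calli of a cultivar in the place of replicates. Only Rab16C of the 9 passed, with a log2 change of -5.09 in TNG67 and -0.02 in IR64 and a difference of -5.07 (SE 0.9, limma adjusted p = 0.03); 2.34% of the tested loci were called lower in this test and 1.82% higher, and 0.939% lower and 1.49% higher with a common sum. This fit has no term for stage. With stage as a replicate block, an alternative added after the data were seen (residual df of 3), Rab16C had an adjusted p of 0.066, and limma called 0 of the 9 and 0.0% of all tested loci (6146 with an unadjusted p under 0.05). The call was also lost without TNG67 T2 (adjusted p = 0.064), TNG67 TS (0.054), IR64 T2 (0.061) or IR64 TS (0.063), and after quantile normalization (0.052). The LOC_Os02g44870 dehydrin had a difference of 3.36 (SE 0.94, adjusted p = 0.079), LEA3 of -3.85 (SE 1.31, adjusted p = 0.13) and Rab16D of -3.52 (SE 1.88, adjusted p = 0.29). Each cultivar had a single embryo library, so a difference between the embryos enters these values in full.

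Stage by stage against the embryo, the calls were of Em1, Rab16B and LEA3. Limma called 3 of the 9 lower at T1 (14.6% of all tested loci), 3 at T2 (12.2%), 2 at TS (9.16%) and 3 at TF (11.2%), and 0 higher at any stage (11.7%, 8.32%, 6.36% and 7.12% of the tested loci). With a common sum the shares of all loci were 8.56% lower and 20.4% higher at T1, 6.62% and 20.0% at T2, 5.37% and 13.7% at TS, and 5.55% and 12.7% at TF. Em1 was among them at every stage, with log2 changes of -5.06 at T1, -4.5 at T2, -7.0 at TS and -6.37 at TF (SE 0.75 each; limma adjusted p = 0.0074, 0.012, 0.0073 and 0.0075). Rab16B was called at all 4 stages and LEA3 at T1, T2 and TF, with an adjusted p of 0.051 for LEA3 at TS. Without the replicate block all of these Rab16B and LEA3 calls were lost, with adjusted p of 0.46, 0.34, 0.36 and 0.42 for Rab16B at T1, T2, TS and TF and of 0.061, 0.13 and 0.16 for LEA3 at T1, T2 and TF. These comparisons share the embryo libraries and are not independent of each other.

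Single libraries decided many of these stage calls. Counts could also rise, as at T1, where 4 loci were called, all lower, without TNG67 TF or without IR64 TF. The count at T1 was 1 without TNG67 T1 and 0 without IR64 T1. The count at T2 was 0 without TNG67 T2 or IR64 T2, and 1 without TNG67 T0, TNG67 T1, IR64 T1, TNG67 TS or IR64 TS. The count at TS was 0 without IR64 TS and 1 without TNG67 TS, TNG67 T1 or IR64 T1. The count at TF was 0 without TNG67 TF and 1 without TNG67 T1, IR64 T1, TNG67 TS or IR64 TS. For Em1 the adjusted p rose above 0.05 only without IR64 T1 at T1 (0.055), without TNG67 T2 (0.09) or IR64 T2 (0.091) at T2, without IR64 TS at TS (0.058) and without TNG67 TF at TF (0.06), and at T2 also without the replicate block (0.053). Of 21 settings, Rab16B lost its call in 14 at T1, 12 at T2, 9 at TS and 11 at TF. At each stage these included leaving out the T0, T1 or TS library of either cultivar (adjusted p of 0.051 to 0.19), at T2 also TNG67 T2 (0.067) or IR64 T2 (0.16), and at TF also TNG67 TF (0.18). LEA3 lost its call in 3 settings at T1, 12 at T2 and 16 at TF. These included leaving out TNG67 T1 (0.072) or IR64 T1 (0.12) at T1, and any 1 library other than IR64 T0 at T2 and TF (0.05 to 0.26).

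Within each cultivar, single libraries were compared by their (FPKM + 1) ratio, with 4-fold as the size used and no p-value. In TNG67, 4 of the 9 loci were at least 4-fold below the embryo at T1 (9.21% of the tested loci), 4 at T2 (8.68%), 5 at TS (7.21%) and 6 at TF (7.4%). In IR64 the numbers were 4 at T1 (8.62%), 6 at T2 (7.99%), 6 at TS (7.28%) and 2 at TF (4.72%). The IR64 failed callus thus had the fewest, Em1 and WSI18, with LEA3 and the LOC_Os02g44870 dehydrin just short of 4-fold at a log2 ratio of -1.99 each. At least 4-fold above the embryo in TNG67 were 1 locus at T1, the LOC_Os02g44870 dehydrin (5.93% of the tested loci), and 0 at T2 (5.26%), TS (4.6%) and TF (5.81%). In IR64 these were 0 loci at T1 (6.87%) and 1, Rab16D, at T2 (6.56%), TS (6.31%) and TF (6.56%). All 4 calli lay below the embryo for 6 loci in TNG67 (37.8% of the tested loci) and 7 in IR64 (36.3%), and in both cultivars for 4, Rab16A, Rab16B, LEA3 and Em1 (24.2%).

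The make-up of the LEA transcripts also differed between callus and embryo. LEA3 made up 1.19 to 5.3% of the summed FPKM of the 9 loci in the TNG67 calli and 52.4% in the TNG67 embryo. In IR64 its share was 23.6% in the embryo, 6.97% at T1, 23.2% at T2, 38.8% at TS and 29.1% at TF. Em1 held 2.21 to 4.65% in TNG67 calli, against 15.3% in their embryo, and 0.196 to 4.42% in IR64 calli, against 20.9% in theirs. WSI18 was the largest part in TNG67 T1, T2 and TS, at 58.0%, 59.4% and 42.0%, and WSI724 in TNG67 TF, IR64 T1 and IR64 T2, at 35.4%, 33.3% and 35.9%. The calli were thus led by the water stress-induced genes or, in IR64 TS and TF, by LEA3, and the embryos by LEA3 in TNG67 and WSI18 in IR64.

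**Figure D3:**
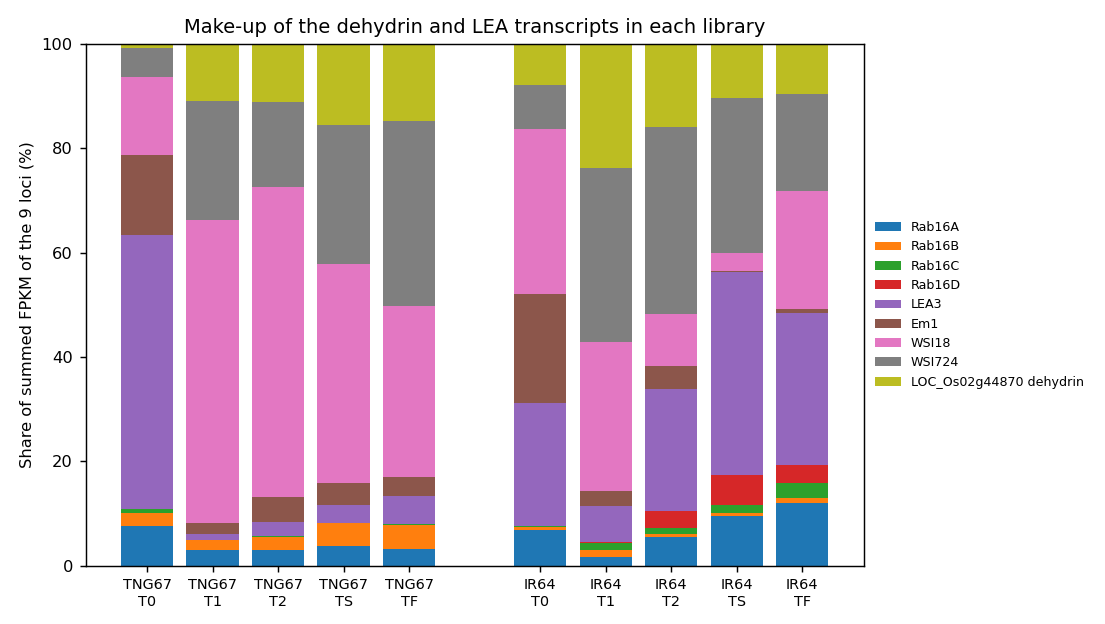
Share (%) of each of the 9 loci in their summed FPKM, 1 bar per library, TNG67 left and IR64 right, with stages in culture order. LEA3 takes at most 5.3% of a TNG67 callus bar and 52.4% of the TNG67 embryo bar, while in IR64 TS it takes 38.8%.

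Failed callus was set against successful callus, which shared its medium. Limma called 0 of the 9 loci and 0.0% of all tested loci in either direction (960 loci had an unadjusted p under 0.05, against 0 calls), with a lowest adjusted p of 0.99 among the 9. In IR64 WSI18 was at 248 FPKM in TF and 26.7 FPKM in TS, a log2 ratio of 3.17, and was the only one of the 9 past 4-fold (2.68% of the tested loci were higher and 0.441% lower). In TNG67 no locus of the 9 was past 4-fold (2.43% of the tested loci higher, 0.602% lower), and WSI18 was at 136 FPKM in TF and 239 FPKM in TS. The median log2 ratio of the 9 was -0.37 in TNG67, with 7 of 9 lower in TF, and 0.81 in IR64, with 2 of 9 lower in TF. Over all tested loci it was -0.08 in each cultivar. No replicate stands behind these ratios, and whether the cultivars differ in them was not tested.

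Between subcultured and newly induced callus limma likewise called 0 of the 9 and 0.0% of all tested loci (653 with an unadjusted p under 0.05). Rab16D in IR64, at 19.9 FPKM in T2 and 1.44 FPKM in T1, was the only one past 4-fold in either cultivar (0.371% of the tested loci were higher and 0.205% lower in IR64, and 0.388% higher and 0.515% lower in TNG67). LEA3 was 41.9 FPKM in TNG67 T2 and 24.6 in TNG67 T1, and 141 FPKM in IR64 T2 and 46.8 in IR64 T1, under 4-fold in both.

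The calli on regeneration medium (TS and TF) were also set against those on auxin medium (T1 and T2), a comparison chosen after the data were seen. Medium and time in culture cannot be told apart in it. In TNG67, 7 of the 9 loci were lower in both regeneration calli than in both auxin calli (18.4% of the tested loci), and 0 were higher (21.9%). Rab16C and Rab16D were the exceptions, at under 1 FPKM throughout the TNG67 calli. In IR64, 4 loci were higher without overlap, Rab16A, Rab16C, Rab16D and LEA3 (20.2%), and 1 was lower, Em1 (20.4%). Without overlap, Rab16A and LEA3 were lower on regeneration medium in TNG67 and higher in IR64, as were 2.27% of the tested loci; 2.01% had the reverse pattern, and 0 of the 9 did.

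For Rab16A the log2 change on regeneration medium was -1.6 in TNG67 and 2.24 in IR64, a difference of -3.85 (SE 0.75) with an unadjusted p of 0.0017 and a limma adjusted p of 0.94. LEA3 had changes of -0.59 in TNG67 and 1.91 in IR64, a difference of -2.51 (SE 0.72, limma adjusted p = 0.94). Neither passed, and limma called 0.0% of all tested loci for this difference (887 with an unadjusted p under 0.05). Under a change common to both cultivars, Em1 had a log2 change of -1.91 (SE 0.42), with an unadjusted p of 0.0021 and a limma adjusted p of 0.3, and 0 of the 9 and 0.0% of all loci were called (2868 with an unadjusted p under 0.05).

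TNG67 and IR64 were compared over the 5 stages, which stand in for replicates of a cultivar. The 22 alternative settings here are not all separate, since leaving out either cultivar's library of a stage leaves the same comparison. Rab16B was higher in TNG67 at 5 of 5 stages, by 2.21 in log2(FPKM + 1), with an SE of 0.34 and a limma adjusted p of 0.0064, a call kept in 22 of 22 settings; 14.0% of the tested loci were called higher in TNG67, and 11.2% with a common sum. Rab16D was lower in TNG67 at 5 of 5 stages, with a difference of -2.94 in log2(FPKM + 1) (SE 0.82, limma adjusted p = 0.041), where 13.3% of the loci were called lower, and 17.9% with a common sum. All 5 TNG67 values of Rab16D, up to 1.09 FPKM, lay below all 5 IR64 values, from 1.28 FPKM, as for 5.68% of the tested loci. The difference was near 0 in the embryo (-0.12) and reached -5.14 at TS. Its call was lost in 10 of 22 settings, including each setting without 1 of the 8 callus libraries (adjusted p of 0.062 without TNG67 T1 or IR64 T1, 0.12 without TNG67 T2, IR64 T2, TNG67 TS or IR64 TS, and 0.1 without TNG67 TF or IR64 TF), with a pseudocount of 5 (0.06) and without the filter (0.09).

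On the 8 calli alone 5 of the 9 loci were called between the cultivars, 2 higher and 3 lower in TNG67. The share of all tested loci called in that fit is not given here, so the count has no background beside it. Leaving out TNG67 T0 or IR64 T0 leaves this same comparison of the calli, and the count was again 5. With both embryos kept and any 1 callus library left out, the count was 1, against 2 with all 10 libraries. The calli alone were not refitted with a callus library left out. Besides Rab16B and Rab16D the 5 called loci were Rab16C, LEA3 and Em1. Their log2 differences in TNG67 calli against IR64 calli were -3.31, -2.57 and 1.69 (limma adjusted p = 0.0033, 0.021 and 0.028). Over all 5 stages their adjusted p-values were 0.093, 0.13 and 0.087. In the embryo Rab16C and LEA3 were higher in TNG67, by 3.39-fold and 2.44-fold in (FPKM + 1). WSI18 was at least 6.25-fold higher in TNG67 at T1, T2 and TS and lower at T0 and TF, and had an adjusted p of 0.2 over the 5 stages.

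**Figure D4:**
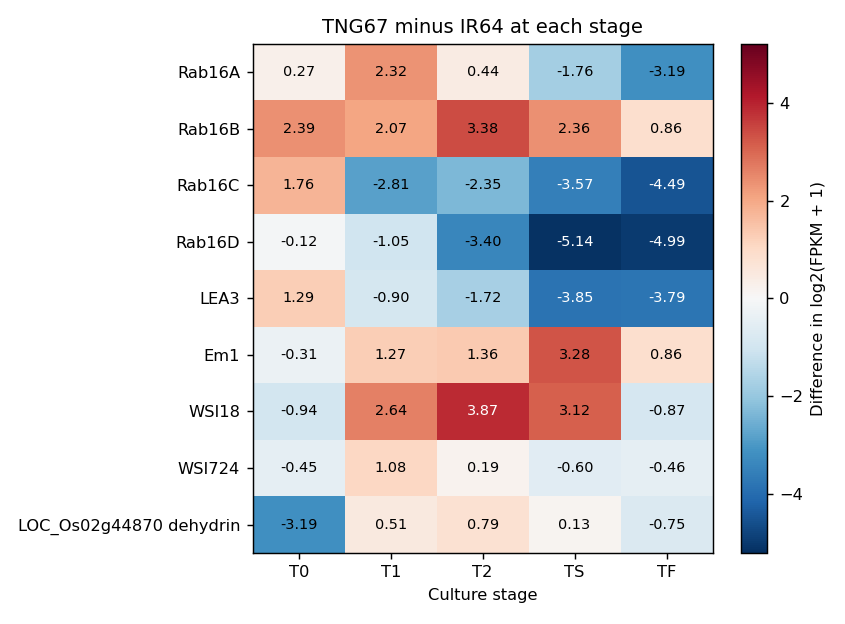
Difference between TNG67 and IR64 in log2(FPKM + 1) at each stage for the 9 loci, 1 library per cultivar and stage, red where TNG67 is higher and blue where it is lower. Rab16B is positive at all 5 stages (0.86 to 3.38), and Rab16C, Rab16D and LEA3 are negative in all calli, down to -5.14.

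The 9 loci did not share a single pattern over the 10 libraries. Pearson correlations of log2(FPKM + 1) between pairs of loci had a median of 0.385 over 36 pairs, from -0.7 for Rab16B and Rab16D to 0.88 for Rab16A with LEA3 and Rab16C with LEA3. The next pairs were Rab16B with WSI18 at 0.81 and Em1 with WSI18 at 0.8. Of the 36 pairs, 14 were above 0.5 and 10 below 0. The points share libraries and the contrast of embryo and callus, so these values are descriptive. Even the neighbours Rab16A to Rab16D split, with Rab16D at 1.09 FPKM in the TNG67 embryo and the other 3 at 46.8 FPKM or more.

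The mean standardised profile of the 9 was matched most closely by LOC_Os10g38030 on chromosome 10 (r = 0.984 over 10 libraries, of 22904 loci) and LOC_Os09g27050 on chromosome 9 (r = 0.965). LOC_Os10g38030 was at 11.8 to 22.5 FPKM in the TNG67 calli and 34.2 FPKM in their embryo, and at 15.1 to 18.0 FPKM in the IR64 calli and 40.2 FPKM in theirs. Around the Rab16 genes, the table held 10 other loci with identifiers from LOC_Os11g26700 to LOC_Os11g26840. None of these exceeded 2.53 FPKM in any library, 4 were listed at 0 in all 10, and LOC_Os11g26770, the only one listed between Rab16C and Rab16B, was at 0.0375 FPKM in TNG67 T2 and listed at 0 in the others. Every value above 2.53 FPKM on this stretch belonged to Rab16A to Rab16D. In TNG67 T2, however, LOC_Os11g26710 was at 1.63 FPKM, above Rab16C (0.692) and Rab16D (0.982).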

How the data were processed

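RNA was measured in 10 libraries. Per the labels' protocols, the authors checked reads with FastQC, aligned them with Bowtie to the Nipponbare genome IRGSP-1.0 with up to 2 mismatches, kept unique alignments, and made the deposited FPKM values with TopHat. The sources used here do not give versions, gene models or strand. The 55166 deposited rows were summed to 54170 loci; each of the 9 loci had a single row.

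Tests used limma 3.58.1 (R 4.3.3) on log2(FPKM + 1) of loci reaching 1 FPKM in 2 or more libraries, with cultivar and stage as terms, an intensity trend and Benjamini-Hochberg adjustment over all 22913 tested loci at 0.05. The stage comparisons took cultivar as the block, and the comparison of the cultivars took stage. Departures of TNG67 and IR64 from their own means had correlations across loci of 0.56 (T0), 0.46 (T1), 0.23 (T2), -0.01 (TS) and 0.27 (TF). The test of the difference between cultivars in callus against embryo had terms for cultivar, callus and their interaction and no stage block, and a blocked version was added after the data were seen. The 1 FPKM added before taking log2 understates changes of low loci. Figures used Python 3.11.15 and matplotlib 3.10.9.

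The loci were chosen with earlier results of these data known. All 9 are described. The loci most like them were the top 2 by correlation with their mean profile. Lists of other LEA genes, regulators and tissue markers needed gene names; 0 of 54170 identifiers matched the RefSeq table, so these lists are not reported. The 10 bisulfite libraries were not analysed here. Alternatives were other pseudocounts, filters, scalings, variance settings, single-row loci, no block, calli alone and each library left out.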

Additional observations from a re-analysis of the deposited data

Results flagged for a closer look

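Rab16C differed between the cultivars in its change from embryo to callus, by -5.07 on the log2 scale (TNG67 minus IR64, limma adjusted p = 0.03), with a change of -5.09 in TNG67 and -0.02 in IR64; with stage as a replicate block the adjusted p was 0.066. TNG67 calli had 0.06 to 0.692 FPKM and the TNG67 embryo 46.8, while IR64 calli had 7.61 to 32.4 and the IR64 embryo 13.1.

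Rab16D stood below the embryo in all 4 TNG67 calli and above it in all 4 IR64 calli, a difference of -3.52 that did not pass the test (limma adjusted p = 0.29). Its margins were small at TNG67 T2 (0.982 FPKM, embryo 1.09) and IR64 T1 (1.44 FPKM, embryo 1.28). Of the tested loci, 37.8% had all TNG67 calli below the embryo and 37.8% all IR64 calli above it. The LOC_Os02g44870 dehydrin stood above the embryo in all 4 TNG67 calli and below it in all 4 IR64 calli, a difference of 3.36 that did not pass either (limma adjusted p = 0.079). Those sides held for 36.1% of the tested loci in TNG67 and 36.3% in IR64. The shares on opposite sides in the cultivars are not given here. For each of these 3 genes the part of read alignment to a japonica genome in the difference was not tested.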

How the results depend on the processing

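Counts are of the 9 loci called by limma. Without the replicate block the count was 1 at T1, 0 at T2, 1 at TS and 1 at TF against T0. Without the filter on low values and after quantile normalization it was 1 at T2, 1 at TS and 1 at TF, and with a common sum 1 at TF. Between the cultivars it was 1 with a pseudocount of 5 or no filter and 5 on the 8 calli alone. For the difference between cultivars in callus against embryo it was 0 after quantile normalization and 0 with stage as a replicate block. Leaving out 1 library gave 2 to 5 calls for callus against embryo, 0 to 4 at T1, 0 to 3 at T2, 0 to 3 at TS, 0 to 3 at TF, 1 to 5 between cultivars, 0 to 3 for their difference in callus against embryo, and 0 to 0 for T2 against T1, TF against TS and both medium comparisons; without an embryo library the difference could not be fitted. A lone library is then assumed to vary like the other stages.

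Signs turned in values that were not called with all 10 libraries as deposited. For callus against embryo, Rab16D ran from -0.6 (without IR64 T0) to 2.93 (without TNG67 T0) when a library was left out. The LOC_Os02g44870 dehydrin ran from -1.96 (without TNG67 T0) to 1.41 (without IR64 T0), and was 0.18 after quantile normalization and 0.22 with a common sum. Leaving out an embryo gives the change of the other cultivar alone, so the ends of both ranges are single-cultivar values. Between cultivars with a library left out, Rab16A ran from -1.06 to 0.32 (without TNG67 TF or IR64 TF), WSI724 from -0.33 to 0.09 and the LOC_Os02g44870 dehydrin from -0.83 to 0.17 (without either embryo). On the 8 calli, the same comparison as with an embryo library left out, WSI724 was 0.05 and the LOC_Os02g44870 dehydrin 0.17. The causes were not tested. Scaling to a common sum moved the median log2 change of all loci in callus against embryo to 0.4, against 0.03 as deposited; that of the 9 loci was then -2.09. Of all loci called in that comparison, 4202 were lower and 3377 higher as deposited, and 2349 lower and 6148 higher with a common sum. Of 72 ratios of a callus to its embryo, 37 were at least 4-fold lower and 4 higher. For a single callus 4.72% to 9.21% of the tested loci were that much lower and 4.6% to 6.87% higher. Under the other settings 35 to 57 of 72 were past the limit in either direction, the highest at 2-fold. The shares of all loci there are not given. The 4 calli of a cultivar share 1 embryo, so the 72 ratios are not independent. With depth unknown, values under 1 FPKM, as for Rab16C and Rab16D in TNG67 calli, have no stated precision.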
